A study of Arabidopsis thaliana with 38 samples.

Results

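The effect of exchanging serine 28 of histone H3 for alanine (S28A) was compared between the histone forms H3.1 and H3.3, gene by gene, in 8 RNA libraries of Arabidopsis thaliana chosen from the 38 libraries that the series describes. The genotypes were H3.1S28A with its control H3.1, and H3.3S28A with its control H3.3, each with 2 libraries. The labels name the source as seedlings at an age of 2 weeks, grown in soil in long or short days without saying which, while the extraction text speaks of closed buds. They do not say how the H3 forms were brought into the plants, which promoter drives them, or whether a genotype is a single line. Nor do they say whether the libraries of a genotype came from separate plants, so the p-values measure only the spread between these libraries, which may be technical. For each gene the quantity of interest is the interaction, called the difference below: the log2 fold change of H3.1S28A against H3.1 minus that of H3.3S28A against H3.3. Of the 27416 genes in the count tables, 20052 had enough counts to be tested.

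Arabidopsis H3.1 is deposited mainly behind replication forks in dividing cells, whereas H3.3 is exchanged into chromatin throughout the cell cycle, with its highest density toward the ends of transcribed genes. Serine 28 sits beside lysine 27, the residue that Polycomb repressive complex PRC2 methylates to keep developmental genes silent, and H3.1 and H3.3 differ by only a few residues. An alanine at position 28 cannot be phosphorylated. These 4 genotypes allow each mutant to be compared with a control that carries the same form unmutated. Since the labels do not say how the lines were made, other differences between the lines cannot be told apart from S28A. An effect of S28A below therefore means the mutant against its control.

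The libraries held between 12865999 and 24449528 counts. Where a gene has no count, its level may still be up to 0.123 to 0.233 CPM (each count divided by its library's total and put on a common scale), which is 3 counts of the total and covers counting error only. The H3.3S28A libraries lay at 106.5 and 115.5 on the first principal component, which held 63.1% of the variance, and the other 6 libraries between -62.6 and -4.4. H3.3S28A replicate 2 had 0.858% of its counts on chloroplast genes, against 0.052% to 0.143% in the other 7 libraries, and without it 4105 genes had the difference called higher and 2695 lower. The nuclear photosynthesis genes summed to 142500 to 170100 CPM of the library total in every library. The 16 anther and pollen markers together reached 5.99 and 4.74 CPM in H3.1S28A, against 6.69 and 4.26 CPM in H3.1, whereas H3.3S28A had 3.90 and 3.73 CPM, against 7.59 and 9.89 CPM in H3.3. Between 5 and 9 of the 16 had no count in a given library. The 2 pairs were deposited as separate tables, so a level set across them also compares tables. A shift between tables that is the same for mutant and control cancels in the difference. An exchange of a single base cannot be seen in gene counts, so the genotypes themselves could not be checked.

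Far more genes were called in the H3.3 pair than in the H3.1 pair, and for most genes called in the H3.3 pair the difference was called too. Morning clock genes, phytochromes and several chromatin regulators and DNA replication genes fell in the H3.3 pair alone. For the chromatin and replication lists the median difference was smaller with the gene span trend described below removed. Pathogenesis-related genes, the evening clock genes TOC1 and PRR5 and several cell wall genes moved in opposite directions. The water channel PIP1;5, the wax gene CER4, the lipid transfer gene LTP4 and the floral genes SEP1, SEP2 and SEP3 rose in both pairs with no difference called. For SEP3, however, the difference was -6.71 without H3.1S28A replicate 1 and -3.66 without H3.1S28A replicate 2. For SEP1 it was -2.33 without H3.1S28A replicate 1. The H3.1S28A libraries lay far apart for both genes, so equal effects are not shown. The difference was called at an adjusted p under 0.05 for 7829 genes (39%), higher for 4896 (24.4%) and lower for 2933 (14.6%). A higher difference means that S28A raised the gene more, or lowered it less, in H3.1 than in H3.3. Within the H3.1 pair 1727 genes rose (8.61%) and 963 fell (4.8%) in H3.1S28A. Within the H3.3 pair 5286 rose (26.4%) and 6150 fell (30.7%) in H3.3S28A. With at least a 2-fold change as well, the difference was higher for 2411 genes (12%) and lower for 1432 (7.14%). At that size the H3.1 pair gave 223 rises (1.11%) and 167 falls (0.833%), and the H3.3 pair 1870 rises (9.33%) and 2685 falls (13.4%). The median absolute log2 fold change was 0.23 in the H3.1 pair and 0.56 in the H3.3 pair.

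The genes were sorted by which of these 3 tests they passed. The difference and the H3.3 pair alone were called for 6155 genes (30.7% of those tested), of which 3982 fell (19.9%) and 2173 rose (10.8%) in H3.3S28A. The difference and the H3.1 pair alone were called for 458 genes (2.28%), 272 up (1.36%) and 186 down (0.928%) in H3.1S28A. Both pairs moved the same way with no difference called for 998 genes (4.98%), 775 up (3.86%) and 223 down (1.11%). For 495 of the 775 and 109 of the 223, the 95% interval of the difference lay within 1.5-fold, and for the rest it was wider. Another 388 genes (1.93%) moved the same way in both pairs but unequally, 205 up (1.02%) and 183 down (0.913%). Opposite directions were found for 502 genes (2.5%), of which 264 rose in H3.1S28A and fell in H3.3S28A (1.32%) and 238 did the reverse (1.19%). A further 3737 genes (18.6%) were called in a single pair without a called difference and so cannot be assigned to a form. For 326 genes (1.63%) the difference alone was called, and 7488 (37.3%) passed no test. Of the 2690 genes called in the H3.1 pair 70.2% were also called in the H3.3 pair, and these same 1888 genes made up 16.5% of the H3.3 calls. Across the 20052 genes, which are not independent replicates, the log2 fold changes of the pairs correlated at r = 0.193 and rho = 0.221.

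**Figure D1:**
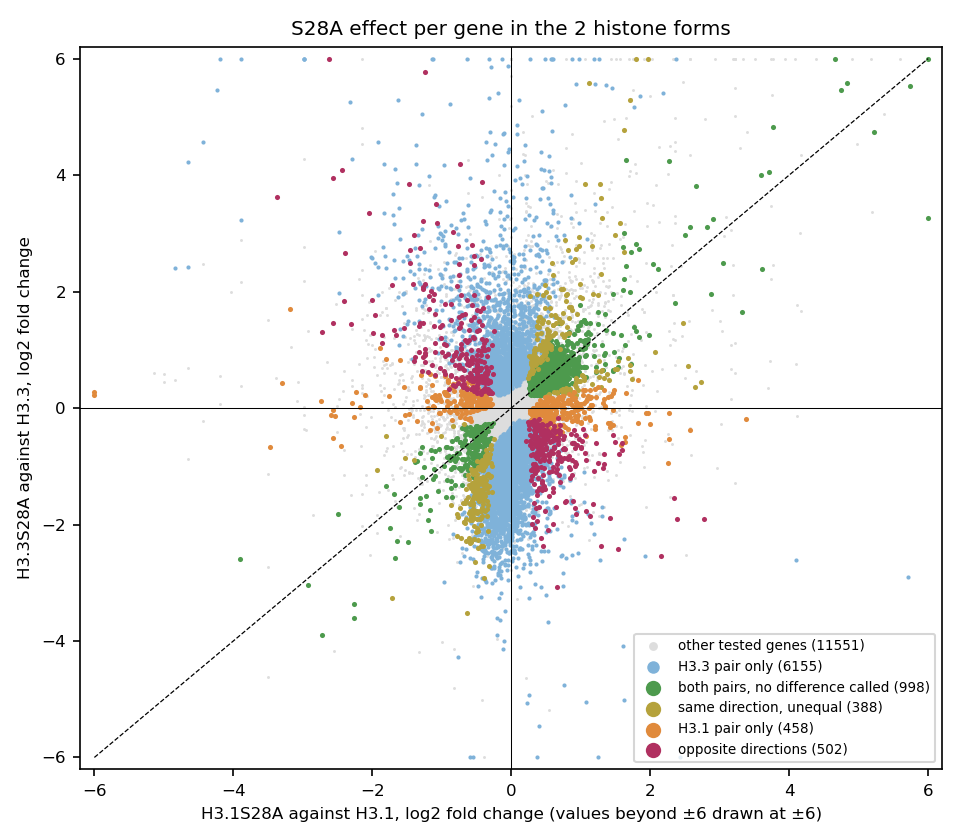
Log2 fold change of H3.1S28A against H3.1 (horizontal) and of H3.3S28A against H3.3 (vertical) for the 20052 tested genes, with values beyond the frame drawn at its edge and the dashed line marking equal effects. The cloud is taller than it is wide, the 6155 genes called in the H3.3 pair alone fill the vertical band, and the 502 genes of opposite direction lie in the upper left and lower right of the plot.

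Single libraries weighed on these counts. Leaving out each of the 8 libraries in turn, 3507 of the genes with a higher difference and 1690 of those with a lower one kept their call every time. The class itself held every time for 3760 of the genes changed in the H3.3 pair alone, 108 of those changed in the H3.1 pair alone, 247 of those moved alike, 52 of those moved the same way unequally and 105 of the opposite ones. The H3.1 calls were the least stable: without H3.1 replicate 1 there were 942 higher and 414 lower genes, without H3.1 replicate 2 there were 950 and 342, and without H3.1S28A replicate 1 there were 953 and 414. In the same fits, in that order, the genes changed in the H3.1 pair alone numbered 279, 258 and 282, those alike 574, 514 and 506, the unequal ones 164, 134 and 158, and the opposite ones 221, 288 and 312. The unequal class also shrank to 231 genes without H3.3 replicate 1 and to 201 without H3.3 replicate 2. Of the tested genes, 638 passed the count filter only through the H3.3S28A libraries, 249 only through H3.3, 87 only through H3.1S28A and 108 only through H3.1, and such a gene is high in that genotype by selection. Counts and medians of gene lists below leave out these members. The shares over all tested genes to set beside them are 24.4% higher and 14.6% lower differences. In the H3.1 pair they are 8.61% up and 4.8% down, and in the H3.3 pair 26.4% up and 30.7% down. Genes are named below only if their class held in all 8 of these fits, apart from the floral organ identity and histone H3 genes, which are given in full.

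Opposite responses were found among defence genes. PR5, PR2 (listed as BGL2) and PR4 encode pathogenesis-related proteins, the first a thaumatin-like protein and the second a beta-1,3-glucanase, and both of these are classical markers of salicylic acid signalling. PR5 (AT1G75040) had 7.39 and 11.4 CPM in H3.1S28A, against 28.8 and 24.8 CPM in H3.1, while H3.3S28A had 147 and 76.1 CPM, against 9.56 and 6.01 CPM in H3.3. PR2 (AT3G57260) had 2.11 and 1.99 CPM in H3.1S28A, against 7.92 and 8.94 CPM in H3.1, whereas H3.3S28A had 94.1 and 57.6 CPM, against 9.36 and 5.64 CPM in H3.3. For both genes the H3.1S28A libraries were the lowest and the H3.3S28A libraries the highest of their pairs without overlap, while the controls H3.1 and H3.3 were nearer to each other than the mutants were. The difference was -5.32 for PR5 (SE 0.42, adjusted p = 2.03e-06 by edgeR's quasi-likelihood test, which gives every adjusted p here) and -5.39 for PR2 (SE 0.39, adjusted p = 1.35e-06). PR4 (AT3G04720) fell by 1.16 in H3.1S28A and rose by 2.00 in H3.3S28A on the log2 scale. Over 13 genes of salicylic acid signalling and defence, 1 had a higher and 7 a lower difference, 0 rose and 3 fell in the H3.1 pair, and 8 rose and 1 fell in the H3.3 pair. The gene that fell in the H3.3 pair was EDS1, an activator of salicylic acid signalling (log2 fold change -1.47, adjusted p = 3.05e-05), which had 22.5 and 18.0 CPM in H3.1S28A against 21.0 and 21.4 CPM in H3.1. The median difference of the list was -1.56, against 0.07 over all tested genes.

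Some genes of the cell wall and of sugar signalling moved in opposite directions in the 2 pairs. TCH4 (AT5G57560), a touch-induced xyloglucan endotransglucosylase that loosens walls, had 42.7 and 36.6 CPM in H3.1S28A, against 8.28 and 7.34 CPM in H3.1, while H3.3S28A had 19.98 and 19.45 CPM, against 47.0 and 68.1 CPM in H3.3. Its difference was 3.88 (SE 0.23, adjusted p = 5.49e-07), made of a rise of 2.34 in the H3.1 pair and a fall of 1.54 in the H3.3 pair. The mutants were within a factor of about 2 of each other and the controls were further apart. Both comparisons are set across the 2 tables, and a shift between the tables was not tested. EXT3 (AT1G21310), a structural extensin, went the other way, with 7.04 and 6.15 CPM in H3.1S28A against 33.9 and 52.3 CPM in H3.1, whereas H3.3S28A had 30.1 and 23.2 CPM against 12.7 and 8.80 CPM in H3.3. XTH31 (difference -2.15, adjusted p = 2.9e-06), another wall-modifying enzyme of the TCH4 family, and the expansin EXPA8 (difference -1.48, adjusted p = 6.48e-06) also fell in H3.1S28A and rose in H3.3S28A. Over 22 genes of the TCH4 family (XTH), 7 had a higher and 5 a lower difference. In the H3.1 pair 11 of them rose and 2 fell, and in the H3.3 pair 10 rose and 2 fell. Among all 25 tested XTH genes, 2 rose in H3.1S28A and fell in H3.3S28A, and 2 did the reverse. TPS8 (AT1G70290), a trehalose-phosphate synthase-like protein whose transcript falls with sugar supply, had 98.4 and 86.7 CPM in H3.1S28A, against 53.5 and 53.5 CPM in H3.1, while H3.3S28A had 41.9 and 43.0 CPM, against 134 and 123 CPM in H3.3. No libraries overlapped within either pair. The difference of TPS8 was 2.39 (SE 0.13, adjusted p = 2.91e-07). The sucrose exporter SWEET12 (AT5G23660) had 17.6 and 17.1 CPM in H3.1S28A, against 27.03 and 39.28 CPM in H3.1, whereas H3.3S28A had 39.0 and 43.9 CPM, against 19.0 and 19.9 CPM in H3.3. Its difference was -2.02 (SE 0.22, adjusted p = 1.66e-05). Of 15 tested genes of the sugar starvation list, 10 had a higher and 2 a lower difference, 8 rose and 0 fell in the H3.1 pair, and 5 rose and 6 fell in the H3.3 pair.

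Further regulators moved in opposite directions. DREB26 (AT1G21910), an ERF-type transcription factor, had 5.56 and 4.83 CPM in H3.1S28A, against 0.910 and 1.07 CPM in H3.1, while H3.3S28A had 1.55 and 2.05 CPM, against 6.32 and 7.04 CPM in H3.3 (difference 4.29, SE 0.37, adjusted p = 3.92e-06). Again it was the H3.1 control that lay lowest and the H3.3 control that lay highest. IAA2 (difference 1.304, SE 0.14, adjusted p = 1.61e-05), an auxin-induced repressor of auxin signalling, followed the direction of DREB26. ERF15 (difference -1.84, SE 0.25, adjusted p = 0.000116), an ethylene response factor, followed that of PR5, but its rise in H3.3S28A did not pass with the gene span trend described below removed (log2 fold change 0.40, adjusted p = 0.0871).

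**Figure D2:**
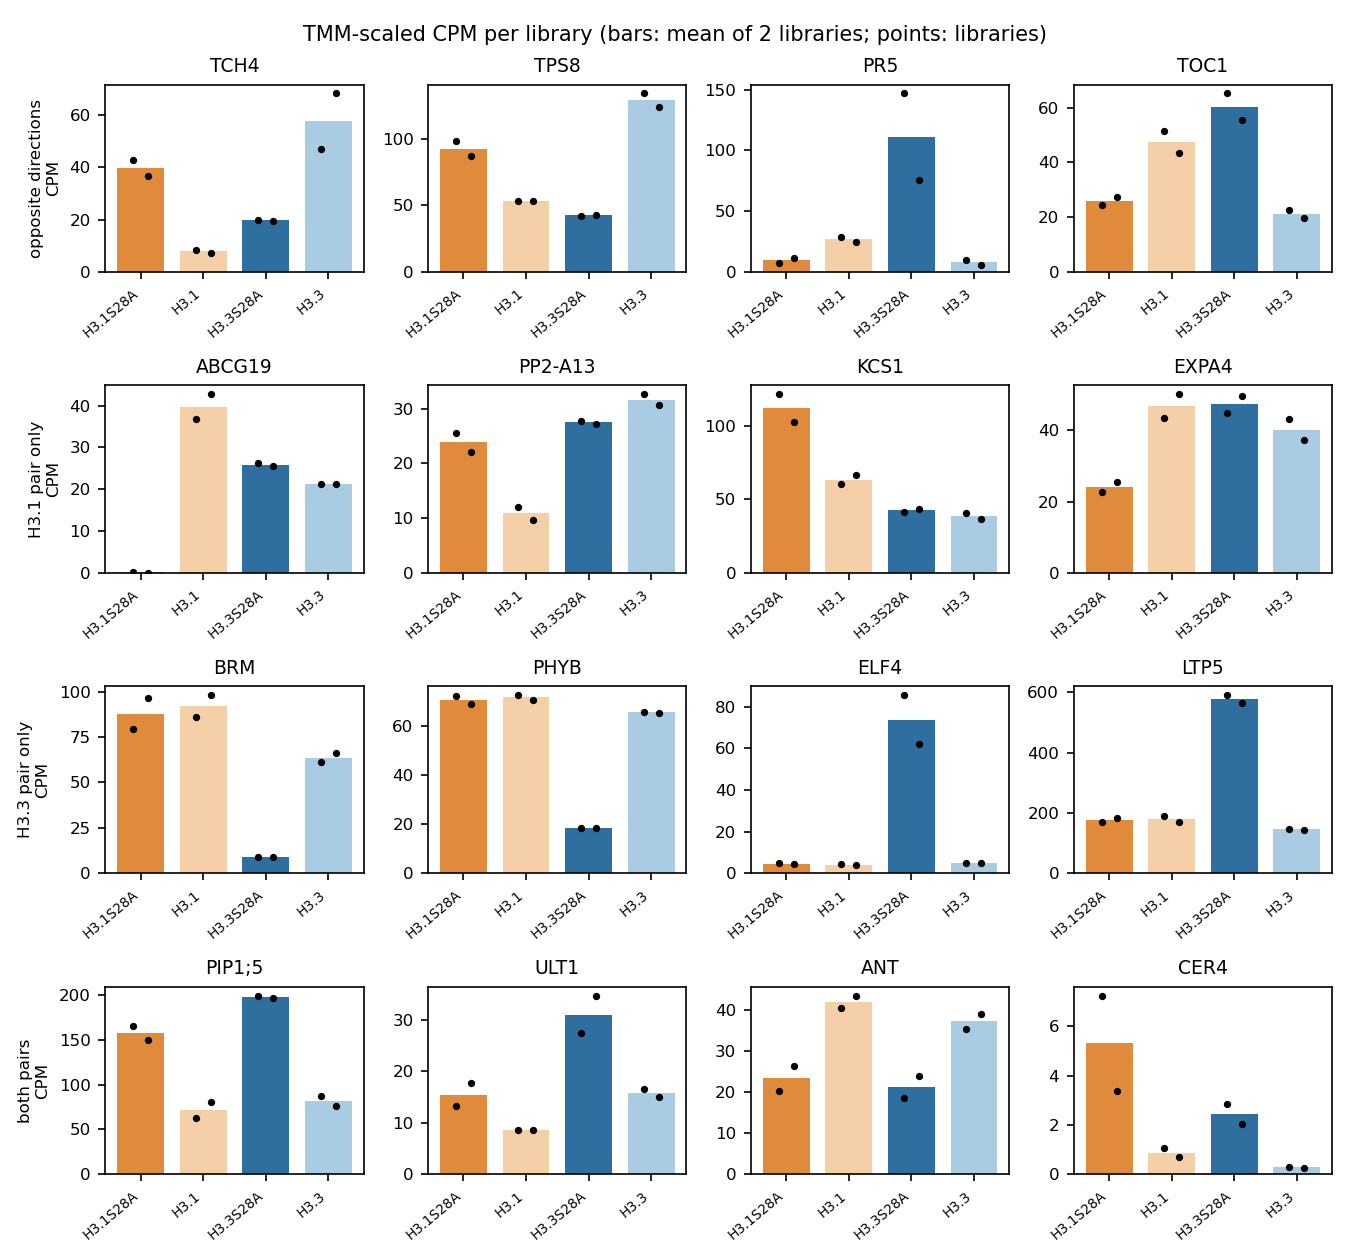
TMM-scaled CPM of 16 genes in the 8 libraries, with bars for the mean of 2 libraries and points for the libraries, each mutant to the left of its control. The rows hold genes that moved in opposite directions, in the H3.1 pair alone, in the H3.3 pair alone, and in both pairs, and in ABCG19 the bar of H3.1S28A is too low to see beside the 36.8 and 42.7 CPM of H3.1.

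The circadian clock divided between the forms. In the plant clock, morning-expressed repressors of the PRR and MYB families and evening-expressed factors such as TOC1 and ELF4 repress each other in turn over the day. All 9 genes of the morning list were tested: 8 had a higher and 0 a lower difference, 0 were called in the H3.1 pair, and 1 rose and 8 fell in the H3.3 pair. The median log2 fold change of the list was -0.03 in the H3.1 pair and -1.99 in the H3.3 pair, against -0.01 and -0.02 over all tested genes. AT3G54500, listed by RefSeq as LNK2, a coactivator of clock genes, had 183 and 170 CPM in H3.1S28A, against 179 and 168 CPM in H3.1, whereas H3.3S28A had 52.6 and 50.2 CPM, against 276 and 257 CPM in H3.3 (difference 2.397, SE 0.12, adjusted p = 2.34e-07). Its H3.1 pair overlapped, with a 95% interval of -0.15 to 0.20 for the log2 fold change. PRR9 (difference 2.29, adjusted p = 2.23e-06) and PRR7 (difference 1.46, adjusted p = 6.34e-06) had the same pattern.

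Of 13 evening clock genes, 1 had a higher and 9 a lower difference, 1 rose and 5 fell in the H3.1 pair, and 8 rose and 1 fell in the H3.3 pair. TOC1 (AT5G61380) had 24.4 and 27.5 CPM in H3.1S28A, against 51.6 and 43.4 CPM in H3.1, while H3.3S28A had 65.2 and 55.4 CPM, against 22.8 and 19.6 CPM in H3.3 (difference -2.38, SE 0.18, adjusted p = 1.63e-06). PRR5 (AT5G24470), a repressor of morning genes, had 32.3 and 40.7 CPM in H3.1S28A, against 77.1 and 68.6 CPM in H3.1, whereas H3.3S28A had 53.1 and 44.8 CPM, against 17.8 and 18.6 CPM in H3.3 (difference -2.42, SE 0.18, adjusted p = 1.52e-06). Both genes were thus lowered in H3.1S28A and raised in H3.3S28A with no overlap. ELF4 (AT2G40080), a subunit of the evening complex, had 85.6 and 61.9 CPM in H3.3S28A, against 5.21 and 5.07 CPM in H3.3. In the H3.1 pair it had 5.07 and 4.41 CPM in H3.1S28A, against 4.41 and 4.05 CPM in H3.1, so the H3.3S28A libraries stood alone (difference -3.69, SE 0.26, adjusted p = 1.24e-06). The labels give no hour of harvest for any library, so a difference in sampling time between the genotypes cannot be told apart from a difference in clock gene regulation.

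Most light signalling genes fell in the H3.3 pair. Of 18 tested, 12 had a higher and 1 a lower difference, 1 rose and 2 fell in the H3.1 pair, and 0 rose and 14 fell in the H3.3 pair. PHYB (AT2G18790), the red light receptor of light-grown plants, had 72.4 and 68.9 CPM in H3.1S28A, against 72.7 and 70.6 CPM in H3.1, while H3.3S28A had 18.6 and 18.5 CPM, against 65.6 and 65.5 CPM in H3.3. The 6 libraries other than H3.3S28A lay close together, and the difference was 1.80 (SE 0.12, adjusted p = 1.16e-06). PHYA (difference 1.86), PHYE (1.48) and the blue light receptor CRY1 (1.64) had the same pattern at adjusted p-values of 1.31e-06, 6.48e-06 and 1.32e-06, in that order. GUN5 (AT5G13630), the subunit of magnesium chelatase that starts chlorophyll synthesis, had 2785 and 3159 CPM in H3.1S28A, against 2220 and 2601 CPM in H3.1, whereas H3.3S28A had 536 and 422 CPM, against 2443 and 2515 CPM in H3.3 (difference 2.67, SE 0.16, adjusted p = 5.49e-07). As tested, nuclear genes of the light-harvesting antennae and Rubisco behaved otherwise. Of 22 tested, 11 had a higher and 1 a lower difference, 14 rose and 0 fell in the H3.1 pair, and 3 rose and 9 fell in the H3.3 pair, with 7 genes called in opposite directions. Those opposite calls depended on single libraries. Of the 14 rises in the H3.1 pair 4 held without each library in turn. With the gene span trend described below removed, 3 antenna and Rubisco genes rose in the H3.1 pair, 16 fell in the H3.3 pair, and 2 were called in opposite directions. In that setting 13 of the 18 light signalling genes fell in the H3.3 pair. Several antenna genes are near-identical copies among which reads may be split.

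Several chromatin regulators fell in the H3.3 pair alone, among them 6 Polycomb group genes. Of 14 tested Polycomb group genes, 7 had a higher and 0 a lower difference, 0 rose and 1 fell in the H3.1 pair, and 0 rose and 9 fell in the H3.3 pair. CLF (AT2G23380), a catalytic subunit of PRC2, had 18.8 and 22.5 CPM in H3.1S28A, against 24.8 and 22.1 CPM in H3.1, while H3.3S28A had 7.71 and 7.01 CPM, against 21.9 and 25.1 CPM in H3.3 (difference 1.49, SE 0.19, adjusted p = 7.83e-05). The H3.1 pair overlapped and the H3.3 pair did not. SWN, the other main PRC2 methyltransferase of leaves (difference 1.35, adjusted p = 3.97e-05), and RING1A, a PRC1 subunit (difference 1.48, adjusted p = 0.00147), fell in H3.3S28A likewise. HSI2, also known as VAL1, a repressor that binds target DNA and recruits Polycomb proteins, had a difference of 1.25 (adjusted p = 6.17e-05).

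Several factors that oppose Polycomb fell in the H3.3 pair as well. Among 13 tested genes of H3K27 demethylation and the trithorax group, 8 had a higher and 1 a lower difference, 1 rose and 0 fell in the H3.1 pair, and 2 rose and 8 fell in the H3.3 pair. REF6 (AT3G48430), a demethylase of H3K27me3, had 26.4 and 31.5 CPM in H3.1S28A, against 28.7 and 29.3 CPM in H3.1, whereas H3.3S28A had 3.88 and 4.49 CPM, against 21.90 and 22.99 CPM in H3.3. BRM (AT2G46020), the ATPase of a SWI/SNF remodelling complex, had 79.3 and 96.3 CPM in H3.1S28A, against 85.9 and 98.1 CPM in H3.1, while H3.3S28A had 9.21 and 9.21 CPM, against 61.0 and 66.3 CPM in H3.3. The H3.3S28A libraries were the lowest of the 8 for both genes, with a difference of 2.44 for REF6 (SE 0.19, adjusted p = 1.81e-06) and of 2.72 for BRM (SE 0.17, adjusted p = 5.95e-07). The chromatin remodeller PKL (difference 1.90, adjusted p = 1.87e-06) and EFS, also known as SDG8, an H3K36 methyltransferase (difference 2.60, adjusted p = 1.87e-06), had the same pattern. Of 14 genes of DNA methylation and histone chaperones, 10 had a higher and 1 a lower difference, 0 were called in the H3.1 pair, and 1 rose and 10 fell in the H3.3 pair. FAS1 (difference 1.401, adjusted p = 0.000233) is a subunit of the chaperone CAF-1 that deposits H3.1 at replication, and CMT2 (difference 2.65, adjusted p = 2.73e-06) methylates DNA outside CG sites in heterochromatin.

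DNA replication genes fell in the H3.3 pair alone in 8 of 14 cases. Over the 14 tested, 8 had a higher and 0 a lower difference, 0 were called in the H3.1 pair, and 1 rose and 11 fell in the H3.3 pair. MCM4 (AT2G16440), a subunit of the replicative helicase, had 30.6 and 33.3 CPM in H3.1S28A, against 29.3 and 34.5 CPM in H3.1, whereas H3.3S28A had 9.83 and 8.66 CPM, against 25.9 and 28.7 CPM in H3.3 (difference 1.56, SE 0.18, adjusted p = 2.47e-05). Its partners MCM2, MCM3 and MCM6 had differences of 1.34, 1.32 and 1.51. In whole seedlings, fewer dividing cells and less RNA per cell cannot be told apart. Of 17 mitosis and cytokinesis genes, 7 had a higher and 1 a lower difference, 0 rose and 3 fell in the H3.1 pair, and 1 rose and 12 fell in the H3.3 pair. SYP111, also known as KNOLLE, the syntaxin that fuses vesicles at the cell plate, had a difference of 1.42 (adjusted p = 2.7e-05).

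In the H3.3 pair the S28A effect followed gene span, whereas in the H3.1 pair the trend was little larger than between replicates. Across 19842 genes with a span in RefSeq, Spearman's rho between span and the log2 fold change was -0.203 in the H3.1 pair, -0.517 in the H3.3 pair and 0.418 for the difference, while replicate against replicate of a genotype gave -0.18 to 0.172. Genes changed in the H3.3 pair alone had a median span of 3699 bases where they fell and 1914 bases where they rose, against 2393 bases over all tested genes. With a smooth span trend removed from each library, the difference was called higher for 3414 genes and lower for 3321, against 4896 and 2933 as tested, so the split between the directions depends on that setting. The higher differences then numbered 5 in the Polycomb list, 6 in the demethylation and trithorax list, 8 in the replication list and 2 in the DNA methylation and chaperone list, against 7, 8, 8 and 10 as tested. The 2 of 14 in the last list are near the share over all tested genes, 3414 of 20052. The calls in the H3.3 pair in these 4 lists then numbered 1 up and 5 down, 2 up and 7 down, 1 up and 10 down, and 2 up and 7 down. The median difference became 0.06 for the Polycomb list, against 0.68 as tested, 0.44 against 1.52 for demethylation and trithorax, 0.60 against 1.00 for replication and 0.22 against 0.96 for DNA methylation and chaperones. The genes of these lists named above kept their class, but with smaller differences. These were 0.69 for CLF, 0.54 for SWN, 1.12 for RING1A, 0.55 for HSI2, 1.60 for REF6, 1.33 for BRM, 0.44 for PKL, 1.21 for EFS, 0.75 for FAS1 and 1.59 for CMT2. For MCM2, MCM3, MCM4 and MCM6 they were 0.72, 0.82, 0.96 and 0.92. ATRX, of the DNA methylation and chaperone list, fell in the H3.3 pair alone as tested but lost that class (difference 0.50, adjusted p = 0.0977). PHYA, PHYB, PHYE and PRR7 kept their class with differences of 1.00, 1.14, 0.95 and 0.89, while AT3G54500 and PRR9 changed less, to 1.99 and 2.2. GUN5 and CRY1 were then called higher in H3.1S28A as well as lower in H3.3S28A. RNA quality and library chemistry were not measured in the files, and their part in the span trend was not tested.

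**Figure D3:**
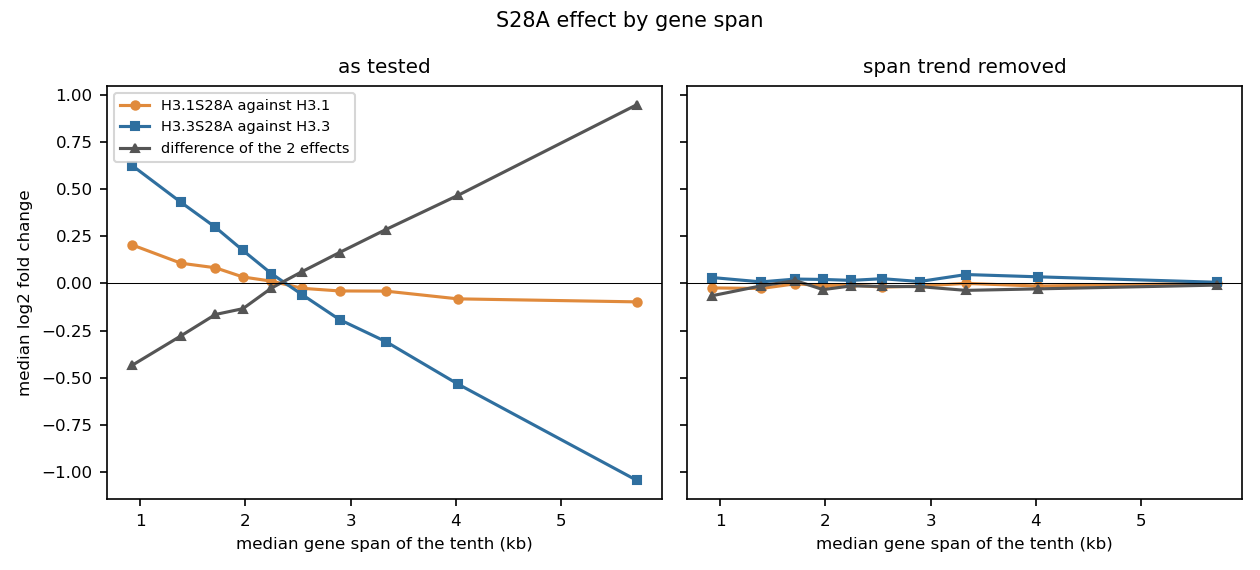
Median log2 fold change in 10 equal groups of genes ordered by span, as tested (left) and after removal of a span trend from each library (right). As tested, the H3.3 pair runs from 0.625 in the shortest group to -1.045 in the longest, the H3.1 pair from 0.20 to -0.10, and the difference from -0.43 to 0.95, and after removal all medians lie near 0.

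Several cold-induced, defensin and lipid transfer genes rose in the H3.3 pair alone. Of 14 cold and dehydration genes, 0 had a higher and 8 a lower difference, 1 rose and 3 fell in the H3.1 pair, and 7 rose and 1 fell in the H3.3 pair. KIN2 (AT5G15970), a small hydrophilic cold-induced protein, had 164 and 149 CPM in H3.1S28A, against 182 and 123 CPM in H3.1, while H3.3S28A had 768 and 954 CPM, against 141 and 167 CPM in H3.3 (difference -2.45, SE 0.23, adjusted p = 5.98e-06). COR413-PM1, a cold-regulated membrane protein outside that list, had a difference of -1.79 (SE 0.12, adjusted p = 8.95e-07). Of 7 plant defensins, 0 had a higher and 5 a lower difference, 0 were called in the H3.1 pair, and 5 rose and 0 fell in the H3.3 pair. PDF1.3 (AT2G26010) had 0.352 and 0.424 CPM in H3.1S28A, against 0.5005 and 0.4893 CPM in H3.1, whereas H3.3S28A had 53.4 and 62.0 CPM, against 0.657 and 1.09 CPM in H3.3. It was thus scarce in 6 libraries and abundant in H3.3S28A (difference -6.36, SE 0.50, adjusted p = 1.96e-06). PDF1.2c, tested through the H3.3S28A libraries only, had 126 counts in the H3.3S28A libraries together and 0 in the H3.3 libraries, at least 51.3-fold higher against 3 counts over the group. Near-identical defensin copies may share reads.

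The lipid transfer proteins, which carry lipids to the plant surface, gave 0 higher and 5 lower differences among 7 tested, 2 up and 1 down in the H3.1 pair, and 6 up and 0 down in the H3.3 pair. LTP5 (AT3G51600) had 169 and 184 CPM in H3.1S28A, against 190 and 171 CPM in H3.1, while H3.3S28A had 591 and 566 CPM, against 149 and 144 CPM in H3.3 (difference -2.02, SE 0.12, adjusted p = 5.23e-07). Of 14 iron homeostasis genes, 2 had a higher and 9 a lower difference, 1 rose and 3 fell in the H3.1 pair, and 9 rose and 2 fell in the H3.3 pair. None of the 3 falls in the H3.1 pair held without each library in turn, whereas 8 of the 9 rises in the H3.3 pair did. ASN1 (AT3G47340), the dark-induced asparagine synthetase, fell in the H3.3 pair alone, with 25.9 and 22.6 CPM in H3.1S28A, against 23.9 and 14.2 CPM in H3.1, whereas H3.3S28A had 7.56 and 4.25 CPM, against 49.7 and 49.8 CPM in H3.3 (difference 3.37, SE 0.33, adjusted p = 9.78e-06).

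TCP1 (AT1G67260), a TCP factor related to regulators of floral symmetry, lay apart from the H3.1 pair in both genotypes of the H3.3 pair. It had 0 counts in both H3.3 libraries and 250 in the H3.3S28A libraries together, at least 102-fold higher, with 8.49 and 6.77 CPM in H3.3S28A. The H3.1 pair lay between, at 3.03 and 2.63 CPM in H3.1S28A and 2.73 and 3.42 CPM in H3.1. The difference was called at an adjusted p of 2.57e-06. Since the labels do not say how the lines were made, a change at this locus that is particular to the H3.3 line cannot be told apart from a response to S28A. Of 10 class II TCP genes, 0 had a higher and 6 a lower difference, 0 rose and 5 fell in the H3.1 pair, and 3 rose and 1 fell in the H3.3 pair.

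Fewer genes were called in the H3.1 pair alone than in the H3.3 pair alone. ABCG19 (AT3G55130), an ABC transporter whose overexpression gives kanamycin resistance, had 2 counts in the H3.1S28A libraries together, against 1769 counts in the H3.1 libraries, a depth-scaled ratio of 0.00133 (95% exact interval 0.000161 to 0.00481, counting error only). It had 26.1 and 25.5 CPM in H3.3S28A, against 21.3 and 21.2 CPM in H3.3, a log2 fold change with a 95% interval of -0.03 to 0.59. The difference was called at an adjusted p of 3.78e-08, and H3.1S28A stood apart from all other genotypes. Since the labels do not say how the lines were made, a change at this locus that is particular to the H3.1S28A line cannot be told apart from a response to S28A. KCS1 (AT1G01120), a ketoacyl-CoA synthase that elongates fatty acids for wax, had 122 and 103 CPM in H3.1S28A, against 60.4 and 66.5 CPM in H3.1, while H3.3S28A had 41.4 and 43.5 CPM, against 40.9 and 36.5 CPM in H3.3 (difference 0.69, SE 0.15, adjusted p = 0.00298). The expansin EXPA4 (AT2G39700) had 22.8 and 25.4 CPM in H3.1S28A, against 43.5 and 50.2 CPM in H3.1, whereas H3.3S28A had 45.0 and 49.7 CPM, against 43.1 and 37.2 CPM in H3.3 (difference -1.19, SE 0.16, adjusted p = 0.000112). Here too the H3.1S28A libraries were apart from the other 6. The water channel PIP1B (difference 0.67, adjusted p = 0.00105) and the xyloglucan enzyme XTH9 (difference 0.86, adjusted p = 0.000257) rose in the H3.1 pair, and the endoglucanase GH9B1 (difference -0.96, adjusted p = 0.000418) fell there.

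For other genes of this kind it was the H3.1 control that lay apart. PP2-A13 (AT3G61060), an F-box protein with a phloem lectin domain, had 25.6 and 22.1 CPM in H3.1S28A, against 12.1 and 9.70 CPM in H3.1, while H3.3S28A had 27.8 and 27.2 CPM, against 32.7 and 30.6 CPM in H3.3 (difference 1.33, SE 0.18, adjusted p = 9.88e-05). PSAK (AT1G30380), a subunit of photosystem I, had 2418 and 2431 CPM in H3.1S28A, against 1357 and 1191 CPM in H3.1, whereas H3.3S28A had 2939 and 2922 CPM, against 2859 and 2615 CPM in H3.3. Of the 272 genes that rose in the H3.1 pair alone, the controls were further apart than the mutants in 194, and the median log2 ratio of H3.3S28A over H3.1S28A was -0.15, against 0.55 for H3.3 over H3.1. The controls were further apart for 84 of the 186 genes that fell in the H3.1 pair alone. Choosing genes by a rise in H3.1S28A favours a low H3.1 control, and the share over all tested genes was not counted. These ratios are also set across the 2 tables. Only KCS1, EXPA4 and PIP1B of the 9 named genes kept this class with the span trend removed. The other 6, ABCG19, PP2-A13, PSAK, XTH9, GH9B1 and the early nodulin-like gene ENODL17, were then also called in the H3.3 pair, in the opposite direction.

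Some water channel, surface lipid and growth regulator genes answered to S28A in both forms, but these were a part of their lists. Both pairs moved the same way with no difference called for 4 of 19 aquaporins, 2 of 13 cuticular wax genes and 2 of 7 lipid transfer genes. Of the 13 wax genes, 5 had a higher and 3 a lower difference, 8 rose and 0 fell in the H3.1 pair, and 5 rose and 1 fell in the H3.3 pair. Outside the lists given in full, 23 alike genes could be named, of which 15 kept this class with the span trend removed. The alike genes named in this paragraph and the next are all among the 15. PIP1;5 (AT4G23400), a plasma membrane aquaporin, had 166 and 149 CPM in H3.1S28A, against 62.5 and 80.3 CPM in H3.1, while H3.3S28A had 199 and 197 CPM, against 87.7 and 76.0 CPM in H3.3. Both mutants were above both controls, and the difference was -0.14 with a 95% interval of -0.49 to 0.22. DELTA-TIP, a vacuolar aquaporin, rose by 0.80 in H3.1S28A and by 0.99 in H3.3S28A (interval of the difference -0.56 to 0.18). Of 19 aquaporins, 3 had a higher and 5 a lower difference, 8 rose and 0 fell in the H3.1 pair, and 10 rose and 0 fell in the H3.3 pair. CER4 (AT4G33790), the reductase that makes wax alcohols, had 7.25 and 3.39 CPM in H3.1S28A, against 1.05 and 0.712 CPM in H3.1, whereas H3.3S28A had 2.85 and 2.05 CPM, against 0.303 and 0.259 CPM in H3.3. The interval of its difference, -2.04 to 0.95, is wide. KCS9, another elongase of the wax pathway, rose by 0.75 in H3.1S28A and by 0.49 in H3.3S28A, and the unadjusted 95% interval of its difference, 0.01 to 0.50, left out 0 although the adjusted p was 0.0887. LTP4 (AT5G59310), a stress-induced lipid transfer protein, had 35.1 and 7.08 CPM in H3.1S28A, against 0.728 and 0.356 CPM in H3.1, while H3.3S28A had 59.9 and 38.1 CPM, against 0.506 and 3.21 CPM in H3.3, so the replicates of a genotype differed several-fold (interval of the difference -2.29 to 3.26).

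ULT1 (AT4G28190), a trithorax-like factor that counters Polycomb at floral genes, rose by 0.87 in H3.1S28A and by 0.97 in H3.3S28A. It had 13.17 and 17.63 CPM in H3.1S28A, against 8.55 and 8.50 CPM in H3.1, whereas H3.3S28A had 27.3 and 34.6 CPM, against 16.5 and 15.02 CPM in H3.3, without overlap in either pair (interval of the difference -0.60 to 0.39). ANT (AT4G37750), a factor that prolongs organ growth, fell in both mutants, with 20.4 and 26.3 CPM in H3.1S28A, against 40.4 and 43.4 CPM in H3.1, while H3.3S28A had 18.6 and 23.9 CPM, against 35.4 and 39.0 CPM in H3.3. Its difference was -0.02 (95% interval -0.45 to 0.41). FKD1, which is needed for closed leaf veins, fell by 0.84 in H3.1S28A and by 1.01 in H3.3S28A (interval of the difference -0.29 to 0.63), and UMAMIT14, an amino acid exporter, fell by 2.93 and by 3.04 in the same order (interval -1.82 to 2.04). Of 13 flavonoid and anthocyanin genes, 1 had a higher and 2 a lower difference, 0 rose and 7 fell in the H3.1 pair, and 3 rose and 7 fell in the H3.3 pair. The median log2 fold change of that list was -0.82 in the H3.1 pair and -0.82 in the H3.3 pair, and 2 of the 7 falls in the H3.1 pair held without each library in turn. Of 54 SAUR genes, small auxin-induced genes with many near-identical copies, 1 had a higher and 13 a lower difference, 14 rose and 0 fell in the H3.1 pair, and 36 rose and 0 fell in the H3.3 pair. With the span trend removed the calls over all 57 tested SAUR genes numbered 8 up and 0 down in the H3.1 pair and 20 up and 2 down in the H3.3 pair.

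Some genes moved the same way by unequal amounts. EXLA1 (AT3G45970), an expansin-like wall protein, had 15.8 and 16.6 CPM in H3.1S28A, against 2.59 and 2.98 CPM in H3.1, whereas H3.3S28A had 21.63 and 24.02 CPM, against 13.6 and 14.0 CPM in H3.3, so the rise was larger in the H3.1 pair (difference 1.81, SE 0.20, adjusted p = 1.82e-05). Its rise in H3.3S28A did not pass with the span trend removed (log2 fold change 0.20, adjusted p = 0.227). SFP1 (AT5G27350), a sugar transporter-like protein, rose more in the H3.3 pair, with 47.8 and 45.0 CPM in H3.1S28A, against 27.9 and 28.5 CPM in H3.1, while H3.3S28A had 74.1 and 75.5 CPM, against 18.6 and 17.5 CPM in H3.3 (difference -1.33, SE 0.13, adjusted p = 1e-05, and -2.25 with the span trend removed). TCP4 (AT3G15030), which limits leaf cell proliferation, fell more in the H3.1 pair, with 56.1 and 56.5 CPM in H3.1S28A, against 109 and 117 CPM in H3.1, whereas H3.3S28A had 37.9 and 33.5 CPM, against 50.2 and 49.9 CPM in H3.3 (difference -0.53, SE 0.13, adjusted p = 0.00619). Of 5 metallothioneins, small metal-binding proteins, 5 rose in the H3.1 pair and 5 in the H3.3 pair, and 1 had a higher and 4 a lower difference. MT3 rose more in the H3.1 pair (difference 0.83, adjusted p = 0.00208), and its rise in H3.3S28A did not pass with the span trend removed (log2 fold change 0.05, adjusted p = 0.715). MT1A rose more in the H3.3 pair (difference -1.15, adjusted p = 0.000835).

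Floral organ identity genes, textbook targets of Polycomb silencing in leaves, numbered 16, of which 12 were tested. AP1, AP3, SHP1 and SHP2 were tested only through the H3.3S28A libraries, so a high level there was a condition of their test. Of the other 8, 0 had a higher and 5 a lower difference, 5 rose and 0 fell in the H3.1 pair, and 8 rose and 0 fell in the H3.3 pair. Their median log2 fold change was 1.88 in the H3.1 pair and 5.52 in the H3.3 pair, and their median difference was -1.62. SEP3 (AT1G24260), a cofactor in all floral organ complexes, had 43.1 and 5.13 CPM in H3.1S28A, against 0.910 and 0.890 CPM in H3.1, while H3.3S28A had 131 and 124 CPM, against 0.303 and 0.104 CPM in H3.3. The H3.1S28A libraries were far from each other but both above H3.1. The difference of SEP3 was not called (adjusted p = 0.075) but was called without H3.1S28A replicate 1 (adjusted p = 3.73e-07) or without H3.1S28A replicate 2 (adjusted p = 2.34e-05). SEP1 had 13.7 and 2.59 CPM in H3.1S28A, against 0.409 and 0.134 CPM in H3.1, whereas H3.3S28A had 10.9 and 11.8 CPM, against 0.152 and 0.311 CPM in H3.3. Its difference was not called (adjusted p = 0.70) but was called without H3.1S28A replicate 1 (adjusted p = 0.0232). SEP2 had 47 counts in H3.1S28A, against 2 in H3.1 (depth-scaled ratio 27.6, 95% exact interval 7.24 to 235), and 120 in H3.3S28A, against 3 in H3.3 (ratio 48.8, interval 16.3 to 240). The rise in H3.1S28A no longer passed when H3.1 replicate 1 was left out (adjusted p = 0.06).

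AG (AT4G18960), which specifies stamens and carpels, and PI, which specifies petals and stamens, rose in both pairs and more in the H3.3 pair. AG had 5.42 and 2.04 CPM in H3.1S28A, against 0.910 and 1.16 CPM in H3.1, and 248 counts in H3.3S28A, against 3 in H3.3 (ratio 101, interval 34.1 to 493). PI had 1.90 and 0.636 CPM in H3.1S28A, against 0.319 and 0.267 CPM in H3.1, while H3.3S28A had 21.4 and 20 CPM, against 0.0506 and 0.207 CPM in H3.3. Their rises in H3.1S28A no longer passed when any library of that pair other than H3.1S28A replicate 2 was left out (adjusted p-values of 0.0663 to 0.23), while the differences kept their calls (adjusted p = 0.000724 for AG and 0.000623 for PI with all libraries). AP2, SEP4 and FUL (listed as AGL8) rose in the H3.3 pair alone. So did SHP1 and SHP2, but for them a high level in H3.3S28A was a condition of the test. Over all of these genes the differences ran from -3.78 to -0.71. The difference was lost for SHP1 without H3.1 replicate 2 (adjusted p = 0.119), for SEP4 without any of 4 libraries (H3.1 replicate 1, H3.1S28A replicate 2, H3.3 replicate 2 or H3.3S28A replicate 1, adjusted p of 0.0584 to 0.0785) and for SHP2 without any of 6, all but H3.1S28A replicate 1 and H3.3 replicate 2 (adjusted p of 0.0566 to 0.322). SHP2 was in addition called higher in H3.1S28A without H3.1S28A replicate 2 (adjusted p = 0.0142). AP3 and AP1 were likewise tested only through the H3.3S28A libraries. They rose in the H3.3 pair, AP3 with 339 counts in H3.3S28A against 0 in H3.3, at least 138-fold higher, and AP1 with 117 counts in H3.3S28A against 1 in H3.3 (ratio 143, interval 25.1 to 5690). Their differences were not called (adjusted p = 0.24 for AP3 and 0.087 for AP1) but were called without H3.1S28A replicate 1 (0.0139 and 0.00155), and their rise in the H3.1 pair was called without H3.1S28A replicate 2 (0.00168 and 0.0354). CAL, STK, LFY and CRC had too few counts to be tested. The anther and pollen markers, given above, were not higher in either mutant than in its control by any call, and of 3 not tested through a single genotype, 1 fell in the H3.3 pair.

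Some of the H3 genes themselves were called. Of 11, 3 had a higher and 2 a lower difference, 2 rose and 0 fell in the H3.1 pair, and 3 rose and 1 fell in the H3.3 pair. With the span trend removed the balance turned: over all 12 tested H3 genes 5 had a higher and 1 a lower difference, 1 rose and 0 fell in the H3.1 pair, and 2 rose and 6 fell in the H3.3 pair, where the median log2 fold change was -0.43, against 0.04 as tested. The H3.3 gene AT4G40040 had 363 and 345 CPM in H3.1S28A, against 333 and 337 CPM in H3.1, whereas H3.3S28A had 1244 and 1189 CPM, against 730 and 691 CPM in H3.3 (difference -0.70, SE 0.11, adjusted p = 0.000231). It was the single H3 gene with a called difference whose class held without each library, and both genotypes of the H3.3 pair lay above both of the H3.1 pair. The H3.3 gene AT4G40030 and the H3.1 gene AT5G65360 rose in the H3.1 pair alone (differences 0.40 and 0.37). Both differences were lost without H3.3S28A replicate 1, and also without H3.3 replicate 1 for AT4G40030 and without H3.3 replicate 2 or H3.3S28A replicate 2 for AT5G65360, with adjusted p-values of 0.0571 to 0.114. With the span trend removed AT5G65360 was no longer called in the H3.1 pair (log2 fold change 0.05, adjusted p = 0.775) but fell in the H3.3 pair (-0.70, adjusted p = 4.7e-05), and AT4G40030 was called in opposite directions (0.32 in the H3.1 pair and -0.29 in the H3.3 pair). The rise of AT5G65360 in H3.1S28A did not pass with H3.1 replicate 2 left out (adjusted p = 0.051). The H3.1 gene AT5G10400 fell in the H3.3 pair alone (difference 0.46), a difference lost without H3.3S28A replicate 2 (adjusted p = 0.056), and its fall was lost without any of 3 libraries (H3.3 replicates 1 and 2 and H3.3S28A replicate 2). The H3-like gene AT1G13370 rose in the H3.3 pair alone, its difference being lost without any library except H3.1S28A replicate 1 and H3.3 replicate 2 and its rise without H3.3 replicate 1 or H3.3S28A replicate 1. AT1G13370 passed no test with the span trend removed. The H3.3 gene AT5G10980 and the H3-like gene AT5G12910 rose in the H3.3 pair with no difference called, AT5G12910 being tested only through H3.3S28A, and AT5G10980 lost its rise with the span trend removed (adjusted p = 0.386). The H3.1 gene AT5G10390 was uneven, with 157 and 63.9 CPM in H3.1S28A, against 152 and 148 CPM in H3.1, while H3.3S28A had 33.1 and 32.6 CPM, against 32.1 and 31.3 CPM in H3.3, and it passed no test with all libraries. Without H3.1S28A replicate 1 it was called lower in H3.1S28A (adjusted p = 3.57e-05) with a difference of -1.26 (adjusted p = 1.24e-05). HTR12, the centromeric H3, HTR11, and the H3.1 genes AT1G09200 and AT3G27360 passed none of the 3 tests, but the difference of AT3G27360 was called higher without H3.3 replicate 1 (adjusted p = 0.0381). With the span trend removed AT3G27360 (difference 0.72, adjusted p = 0.00261) and AT1G09200 (difference 0.33, adjusted p = 0.0295) were called lower in H3.3S28A alone. HTR11 was then also called lower in H3.3S28A (log2 fold change -1.12, adjusted p = 0.042), with no difference called (adjusted p = 0.117). H3 genes of a form are near-identical in coding sequence, so their reads may be split or shared. Reads of an introduced H3 copy, if there is one, may also count at these genes. That cannot be told apart from a response of the genes to S28A.

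**Figure D4:**
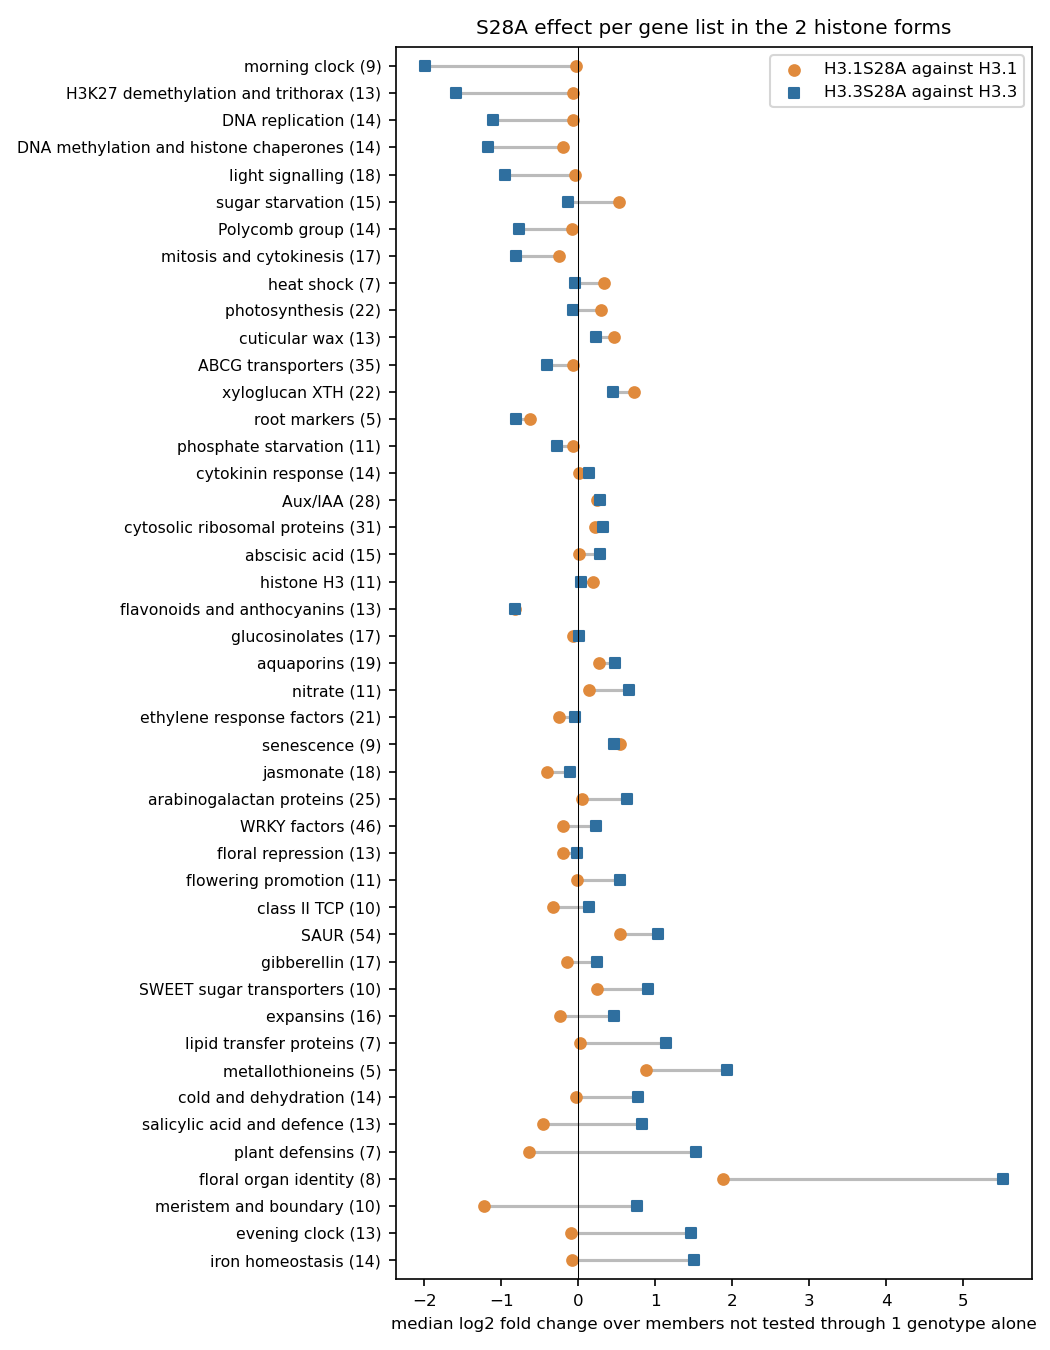
Median log2 fold change over the members of each gene list that were not tested through a single genotype (number in brackets, at least 5), for H3.1S28A against H3.1 (circles) and H3.3S28A against H3.3 (squares), with genes at 0 counts in a genotype set to their lower limit, ordered by the median difference. The morning clock list has medians of -0.03 and -1.99, the flavonoid list -0.82 and -0.82, and the floral organ identity list 1.88 and 5.52 in the H3.1 and the H3.3 pair.

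Further lists were counted in the same way. Of 16 expansins, 0 had a higher and 11 a lower difference, 3 rose and 5 fell in the H3.1 pair, and 9 rose and 1 fell in the H3.3 pair. Of 10 meristem and boundary genes, 0 had a higher and 5 a lower difference, 0 rose and 4 fell in the H3.1 pair, and 3 rose and 1 fell in the H3.3 pair, but 1 of those 4 falls held without each library. Of 46 WRKY factors, 8 had a higher and 13 a lower difference, 0 rose and 3 fell in the H3.1 pair, and 14 rose and 11 fell in the H3.3 pair. Over all 55 tested WRKY factors 56.4% were called in the H3.3 pair, near the 57% over all tested genes. Of 10 SWEET sugar transporters 6 rose and 0 fell in the H3.3 pair, as did 6 and 0 of 11 flowering promoters. Of 18 jasmonate genes, 0 had a higher and 3 a lower difference, so 16.7% were called, against 39% over all tested genes. Of 5 root markers, 1 had a higher and 0 a lower difference, 0 rose and 1 fell in the H3.1 pair, and 0 rose and 3 fell in the H3.3 pair. All 13 markers together reached 46.3 and 43.1 CPM of the library total in H3.1S28A, against 59.6 and 65.8 CPM in H3.1, whereas H3.3S28A had 38.5 and 35.2 CPM, against 69.7 and 65.9 CPM in H3.3. Both mutants thus had less root marker RNA than both controls, and the part of this in the other results was not tested. The genotypes that carried a contrast differed by class: among genes that rose in H3.1S28A and fell in H3.3S28A the median log2 ratio of H3.3S28A over H3.1S28A was -0.81, against 0.40 for H3.3 over H3.1, and among those that fell in H3.1S28A and rose in H3.3S28A it was 1.01, against -0.47.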

How the data were processed

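The authors deposited raw counts per gene in 2 tables, H3.1 with H3.1S28A and H3.3 with H3.3S28A. The submitters' processing notes name the tools HISAT2, DESeq2 and Subread and the genome build TAIR10. No source used here gives their versions, the annotation, the strand setting or the handling of multiply mapped reads, so overlapping and antisense genes are uncertain too. The tables were joined by gene identifier, and the columns were assigned to samples by name. The H3.1S28A columns carry an unexplained "new". Gene names and spans came from a RefSeq table (TAIR10.1) in which 26719 of the 27416 identifiers (97.5%) were found. No coordinates or sequences are printed, since that table holds none of the files' build. A single edgeR 4.0.16 fit (R 4.3.3, TMM, filterByExpr by genotype, glmQLFit and glmQLFTest) gave all 3 contrasts, with Benjamini-Hochberg adjustment over the 20052 tested genes, a threshold of 0.05, an SE obtained by dividing the size of the log2 fold change by the root of F, and 95% intervals from its degrees of freedom. This was tried on simulated counts. CPM of genes are TMM-scaled, and summed CPM of lists are not. Mean and error rest on n = 2 libraries per genotype.

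The comparison, the 48 gene lists and the rule for named genes were chosen with earlier results of these data known. The rule took up to 4 members per list by the p of the difference, up to 4 more that moved alike or opposite, all floral organ identity and histone H3 genes, and the genes with a symbol and at least 1 CPM that had the largest differences without overlap in a pair (8 in each direction) or led each class (6 in each direction), 303 in all. After the values were seen this was narrowed to those whose class held without each library. Also after the values were seen, members that pass the filter only through the libraries of 1 genotype were left out of list counts. Same-numbered libraries did not deviate together (r from -0.0989 to 0.0246), so no block was used. Alternatives were DESeq2 1.42.0 and its size factors, other count filters, the replicate block, each table alone, leaving out each library or the organelle genes, removal of a span trend, and a 2-fold threshold. The 30 chromatin libraries were not used here.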

Additional observations from a re-analysis of the deposited data

Results flagged for a closer look

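The S28A effect differed between the histone forms by a test of the difference itself, the interaction contrast in edgeR, for 4896 genes with a higher and 2933 with a lower effect in the H3.1 pair than in the H3.3 pair. Among the genes named above, 14 moved in opposite directions in the 2 pairs. The difference in log2 fold change, H3.1 pair minus H3.3 pair, was positive for DREB26 (4.29), TCH4 (3.88), TPS8 (2.39) and IAA2 (1.304). It was negative for the pathogenesis-related genes PR2, listed as BGL2 (-5.39), PR5 (-5.32) and PR4 (-3.17). Among wall genes it was -4.03 for EXT3, -2.15 for XTH31 and -1.48 for EXPA8. It was -2.42 for PRR5, -2.38 for TOC1, -2.02 for SWEET12 and -1.84 for ERF15. With the gene span trend removed 13 of the 14 were still called in opposite directions, and ERF15 was called in the H3.1 pair alone. With 2 libraries per genotype, no library could be tested as an outlier within its genotype.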

How the results depend on the processing

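With 2 libraries per genotype, leaving out single libraries gave 4071 to 4852 higher and 2138 to 2790 lower differences. The H3.1 pair then had 942 to 1693 higher and 342 to 1156 lower genes, and the H3.3 pair 3982 to 5410 higher and 5294 to 6401 lower ones. The classes ranged from 258 to 474 genes for the H3.1 pair alone, 4969 to 6521 for the H3.3 pair alone, 506 to 988 alike, 134 to 403 unequal and 221 to 472 opposite. In each such fit the lone library was assumed to vary like the other genotypes. Fewer libraries were fitted, and any other cause was not tested.

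A 2-fold threshold left 2411 higher and 1432 lower differences, 223 higher and 167 lower genes in the H3.1 pair, 1870 higher and 2685 lower in the H3.3 pair, and 118, 3097, 90, 140 and 373 genes changed in the H3.1 pair alone, the H3.3 pair alone, alike, unequally and oppositely. The other settings kept every such count within 1.5 times, but not always the same genes. With the span trend removed, 197 of 458 genes of the H3.1 pair alone and 3760 of 6155 of the H3.3 pair alone kept their class. So did 471 of 998 alike, 161 of 388 unequal and 350 of 502 opposite genes. Of the 4896 higher and 2933 lower differences, 2942 and 2313 then kept their call. DESeq2 gave 3957 higher and 2721 lower differences and its size factors in edgeR 4431 and 3295. The fit with the replicate number as a block gave 4743 and 2777 calls, and no pairing of libraries by number was seen.

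Values whose sign turned, each with the span trend removed, were the difference (0.33) and the H3.3 pair (-0.57) of AT1G09200, the difference (-0.27) and the H3.3 pair (0.49) of ABCG32, and the H3.3 pair of PSAK (-0.46), ABCG34 (0.24), AGP12 (-0.021), AT3G23390 (-0.0814), RPL16B (-0.11), AT4G40030 (-0.29) and AT5G10980 (-0.0835). The cause was not tested. The shallowest library allows no level under 0.233 CPM to be told from 0.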
